A study of Rattus norvegicus with 59 samples.

Results

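Calcium-binding proteins by which classes of neurons are told apart were followed across 5 brain regions of rats from a pair of inbred lines. The genes sought were 7: Pvalb, Calb1, Calb2, Hpca, Vsnl1, Ncald and Pcp4. Each gene was taken through every probe set whose only gene symbol in the array annotation is that gene. Of the 8799 probe sets on the array, 6 met this rule, with 1 each for Pvalb (gene ID 25269), Calb1 (83839), Calb2 (117059), Hpca (29177), Vsnl1 (24877) and Pcp4 (25510). Ncald was not analysed here. All 6 probe sets were bright enough to be among the 5244 that entered the tests, and no value of theirs lay under the floor of 16 that was set on the signal.

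The study asked how gene expression in the brain differs between inbred alcohol-preferring rats (iP, strain iP5C) and inbred alcohol-non-preferring rats (iNP, strain iNP1). All were adult males that were handled daily before they were killed, and the labels give no alcohol exposure or other treatment for either line. The same 6 iP and 6 iNP animals gave 5 regions: the frontal cortex and hippocampus, the amygdala, and the striatum with the nucleus accumbens. Each dissected region of an animal went to an array of its own, 6 iP and 6 iNP arrays per region with 1 exception, since the frontal cortex of the sixth iP animal was not analysed here and leaves 5 iP arrays. Each line is represented by a single inbred strain, so a difference between the lines cannot be told apart from other fixed differences between these strains.

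The deposited signals had the same overall level on every array, with a 2% trimmed mean of 1000 and a median between 251 and 391 on all 59. Judged by correlations with all other arrays, 5 were nearer another region than their own: cortex of iP animal 5 (nearest amygdala), amygdala of iP animal 1 (nearest cortex), amygdala of iNP animals 7 and 8 (nearest accumbens) and accumbens of iP animal 4 (nearest amygdala). The cortex array of iP animal 5 had a median correlation of 0.810 with cortex and 0.832 with amygdala arrays, and the amygdala array of iP animal 1 one of 0.930 with amygdala and 0.954 with cortex arrays. Results that rest on these 2 arrays, which stood apart, are also given without them. No arrays held identical values. The striatum and accumbens dissections were set against the rest with markers of medium spiny neurons, the main cell type of both. Of 9 tested, 8 were higher in striatum and 9 in accumbens than in the other 4 regions on average. In cortex 8 were lower, in hippocampus 8, and in amygdala 4 were lower and 1 higher. The dissection of cortex, hippocampus and amygdala from each other was not checked in this way.

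Most of these proteins bind calcium through EF-hands, a helix-loop-helix fold that grips the ion. Parvalbumin (Pvalb), calbindin (Calb1) and calretinin (Calb2) act mainly as buffers that shape calcium transients, and antibodies against them sort interneurons and some projection neurons into classes. Hippocalcin (Hpca) and visinin-like 1 (Vsnl1) are neuronal calcium sensors, which carry a fatty acid that is exposed when calcium binds and moves them to membranes. Pcp4, also called PEP-19, has no working EF-hand of its own but binds calmodulin through an IQ motif and changes how fast calmodulin takes up and releases calcium. Parvalbumin is known for fast-spiking interneurons, calbindin for medium spiny neurons and several interneuron classes, calretinin for another set of interneurons, and hippocalcin for pyramidal cells of the hippocampus.

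Pvalb, Hpca and Pcp4 were the genes whose signal in at least 1 region lay more than 1 on the log2 scale from the mean of the other 4. The 250 bases before the start of these genes, from RefSeq on GRCr8, are shown for that reason. They lie at chr7:111666290-111666539 (minus strand) for Pvalb, chr5:146748359-146748608 (minus strand) for Hpca and chr11:49269936-49270185 (plus strand) for Pcp4. Capitals mark matches, on either strand, to 4 motifs that were searched, none overlapping another: the TATA box as TATAAA, the GC box as GGGCGG, the CCAAT box by its name, and the core of the cAMP response element as TGACG.
Pvalb: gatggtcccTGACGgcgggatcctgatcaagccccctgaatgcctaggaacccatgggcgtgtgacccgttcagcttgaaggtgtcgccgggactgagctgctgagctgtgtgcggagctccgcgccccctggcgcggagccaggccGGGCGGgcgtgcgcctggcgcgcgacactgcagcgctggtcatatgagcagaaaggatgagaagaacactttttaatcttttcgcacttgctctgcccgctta
Hpca: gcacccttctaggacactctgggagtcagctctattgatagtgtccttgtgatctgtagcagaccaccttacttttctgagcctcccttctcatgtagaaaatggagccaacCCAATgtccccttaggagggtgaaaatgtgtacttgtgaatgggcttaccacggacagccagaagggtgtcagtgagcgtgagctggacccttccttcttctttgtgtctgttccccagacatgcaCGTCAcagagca
Pcp4: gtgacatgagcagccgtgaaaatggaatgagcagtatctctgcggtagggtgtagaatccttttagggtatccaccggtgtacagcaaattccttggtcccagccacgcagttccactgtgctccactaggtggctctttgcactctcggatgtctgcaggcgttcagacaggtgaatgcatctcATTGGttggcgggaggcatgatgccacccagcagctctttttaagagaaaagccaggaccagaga
The Pvalb window held 1 match to the cAMP response element core and 1 to the GC box. The Hpca window held 1 CCAAT box and 1 response element core, the second on the reverse strand, and the Pcp4 window held 1 CCAAT box on the reverse strand. No match to the TATA box was found in these windows. Among all 33469 windows of this length, 12.9% held a TATA box, 30.5% a GC box, 34.0% a CCAAT box and 18.2% a response element core. The GC content was 62.8% for Pvalb, 50.8% for Hpca and 52.4% for Pcp4, where the median of all windows was 51.2%. Of the 7 genes, 4 had a window in this table; that of Vsnl1 (not shown) held 1 GC box and none of the other 3 motifs.

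Signals are linear array units, tests used log2 values, and a gene was called at a Benjamini-Hochberg adjusted p under 0.05 in limma over all 5244 probe sets. In the tissue of a region, fewer cells of a type and less RNA per cell cannot be told apart. The region in which each of the 6 genes was highest differed: cortex for Pvalb and Vsnl1, amygdala for Calb1, accumbens for Calb2, hippocampus for Hpca and striatum for Pcp4. Region accounted for 91.2% of the variance of Hpca over the 59 arrays, 89.8% for Pcp4, 80.1% for Pvalb, 73.5% for Calb1, 67.0% for Calb2 and 64.2% for Vsnl1. The median over all tested probe sets was 15.5%, and only 10 probe sets had a larger share than Hpca and 13 than Pcp4.

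**Figure D1:**
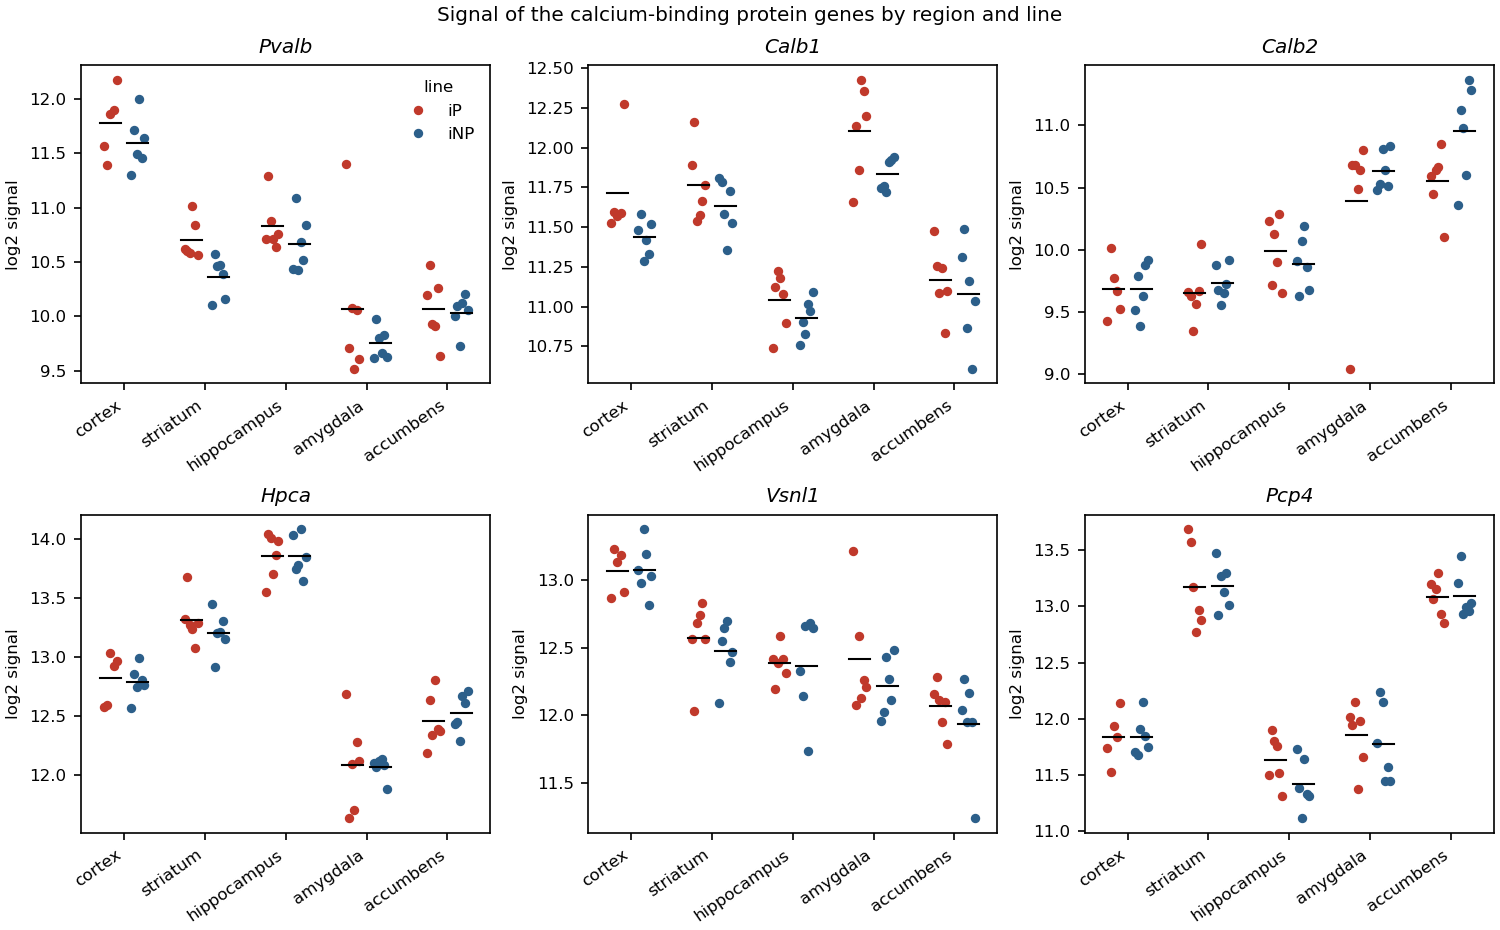
Log2 signal (y axis) of the 6 calcium-binding protein genes on every array, by region (x axis), with iP (red) left of iNP (blue) and bars at group means of 5 or 6 arrays. The highest region varies between the genes, with cortex for both Pvalb and Vsnl1, and the iP and iNP points overlap in every region.

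Parvalbumin, the buffer of fast-spiking interneurons, was highest in cortex. Its signal there was 2517 at the lowest, 3196 at the median and 4631 at the highest over 11 arrays. In hippocampus the same values were 1381, 1675 and 2509 over 12 arrays, and in striatum 1103, 1519 and 2073. In accumbens they were 797, 1080 and 1422, and in amygdala 733, 867 and 2705. The amygdala array of iP animal 1, at 2705, was the only array outside cortex that reached the cortical range; the next highest amygdala array was at 1083. Cortex exceeded the mean of the other 4 regions by 1.35 ± 0.10 on the log2 scale (SE; adjusted p = 3.67e-15), a 2.56-fold difference, and Pvalb was highest in cortex in 11 of 11 animals with a cortex array. Accumbens was lower than the other 4 regions by -0.66 ± 0.09 (adjusted p = 3.02e-07) and amygdala by -0.84 ± 0.09 (adjusted p = 7.70e-10). Hippocampus, at 0.21 ± 0.09 (adjusted p = 0.110), and striatum, at -0.06 ± 0.09 (adjusted p = 0.748), were not called. The order was cortex, hippocampus, striatum, accumbens, amygdala. Hippocampus and striatum did not differ beyond their spread (0.22, 95% interval -0.02 to 0.46, adjusted p = 0.223), and neither did accumbens and amygdala (0.14, -0.10 to 0.38, adjusted p = 0.445). Without the 2 arrays that stood apart, the accumbens was above the amygdala by 0.28 (adjusted p = 0.0167), and hippocampus stood at 0.25 against the other 4 regions (adjusted p = 0.00425, with 0.00425 to 0.255 over all settings tried). Leaving out iP animal 1 alone also made the hippocampus difference a call (0.25, adjusted p = 0.0110).

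Calbindin had a flatter profile. Its signal ran from 3233 through a median of 3867 to 5505 in amygdala, and from 2624 through 3320 to 4582 in striatum. In cortex it ran from 2498 through 2952 to 4948, in accumbens from 1562 through 2240 to 2867 and in hippocampus from 1712 through 2041 to 2390. All 12 amygdala arrays were above all hippocampus and accumbens arrays, while amygdala, striatum and cortex overlapped. Amygdala was higher than the other 4 regions by 0.63 ± 0.07 (SE, log2; adjusted p = 6.65e-10) and striatum by 0.29 ± 0.07 (adjusted p = 0.00243). Hippocampus was lower by -0.60 ± 0.07 (adjusted p = 1.06e-09) and accumbens by -0.43 ± 0.07 (adjusted p = 3.40e-06), and cortex at 0.12 ± 0.07 was not called (adjusted p = 0.280). Calb1 was highest in amygdala in 8 of 12 animals and in striatum in the other 4. Striatum and accumbens, which share their main cell type, stood apart for this gene: striatum was above accumbens in 12 of 12 animals. In the order amygdala, striatum, cortex, accumbens, hippocampus, striatum and cortex did not differ beyond their spread (0.13, 95% interval -0.05 to 0.32, adjusted p = 0.463), nor did accumbens and hippocampus (0.14, -0.04 to 0.31, adjusted p = 0.292). The Calb1 signal on the cortex array of iP animal 5 was 4948, against 2952 to 3100 on the other 4 iP cortex arrays; without the 2 arrays the cortex difference was 0.04. A further probe set of the same sequence record, to which the annotation gives no gene, correlated with this one at r = 0.207 over 59 arrays. It was not called in amygdala, hippocampus or striatum, so the Calb1 profile rests on 1 probe set.

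Calretinin was highest in accumbens and amygdala. Its lowest, median and highest signals were 1101, 1611 and 2643 in accumbens and 528, 1597 and 1825 in amygdala. They were 791, 960 and 1254 in hippocampus, 650, 813 and 1059 in striatum and 669, 816 and 1033 in cortex. All accumbens arrays were above every striatum and cortex array. So were the amygdala arrays except that of iP animal 1, which at 528 was the lowest of all 59. Accumbens was higher than the other 4 regions by 0.80 ± 0.10 (SE, log2; adjusted p = 3.29e-08) and amygdala by 0.50 ± 0.10 (adjusted p = 2.01e-04). Cortex was lower by -0.55 ± 0.11 (adjusted p = 1.15e-04) and striatum by -0.53 ± 0.10 (adjusted p = 1.67e-04), and hippocampus at -0.22 ± 0.10 was not called (adjusted p = 0.126). Without the 2 arrays, hippocampus was called at -0.26 (adjusted p = 0.0150, with 0.0104 to 0.307 over all settings tried), and without iP animal 1 alone at -0.29 (adjusted p = 0.0104). Amygdala stood at 0.62 without the 2 arrays. Of the neighbours in the order accumbens, amygdala, hippocampus, striatum, cortex, amygdala and hippocampus alone differed (0.57 ± 0.13, adjusted p = 5.85e-04). Accumbens and amygdala differed by 0.24 (95% interval -0.02 to 0.50), hippocampus and striatum by 0.24 (-0.02 to 0.51) and striatum and cortex by 0.02 (-0.25 to 0.29), none of them called. Accumbens was above striatum in 12 of 12 animals, the opposite of Calb1 in the same animals.

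**Figure D2:**
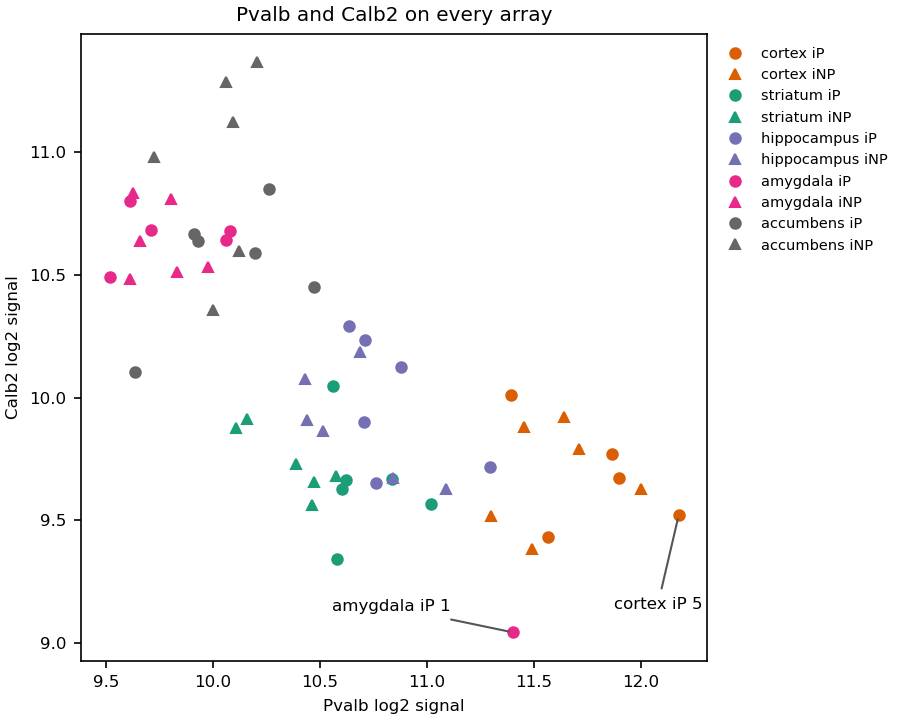
Calb2 log2 signal (y axis) against Pvalb log2 signal (x axis) on each of 59 arrays, with colour for region, circles for iP and triangles for iNP. Cortex arrays lie at high Pvalb and low Calb2, amygdala and accumbens arrays at low Pvalb and high Calb2, and the amygdala array of iP animal 1 lies beside the cortex arrays in Pvalb.

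Across the 59 arrays Pvalb and Calb2 correlated at r = -0.708, over points that share regions and animals. After each region by line mean was removed, r was -0.522, and without the 2 arrays that stood apart it was -0.105 (57 arrays), so that the relation within groups rests on those arrays. The plot of Calb2 against Pvalb shows the regional part of it. Pvalb and Vsnl1, both highest in cortex, correlated at r = 0.755 over all arrays and at 0.159 within groups without the 2 arrays.

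Among the sensors, hippocalcin had the most regional signal. It was 11999 at the lowest, 14832 at the median and 17373 at the highest in hippocampus. In striatum the values were 7742, 9774 and 13090, in cortex 6058, 7160 and 8380, in accumbens 4657, 5566 and 7174, and in amygdala 3184, 4392 and 6606. Every hippocampus array was above every cortex, accumbens and amygdala array, and the ranges of hippocampus and striatum overlapped only between 11999 and 13090. Hippocampus was higher than the other 4 regions by 1.20 ± 0.07 (SE, log2; adjusted p = 2.72e-19), a 2.30-fold difference, and amygdala was lower by -1.03 ± 0.07 (adjusted p = 2.32e-16). Striatum was higher by 0.45 ± 0.07 (adjusted p = 2.57e-06) and accumbens lower by -0.51 ± 0.07 (adjusted p = 1.14e-07), with cortex at -0.12 ± 0.07 not called (adjusted p = 0.297). Hpca was the only 1 of the 6 genes for which all 10 pairs of regions were called. The order was hippocampus, striatum, cortex, accumbens, amygdala, with steps of 0.60, 0.46, 0.31 and 0.42. Hippocampus was highest in 12 of 12 animals and amygdala lowest in 11 of 12. The exception was iP animal 1, whose amygdala array, at 6606, was the highest of its region; without the 2 arrays amygdala stood at -1.10.

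Visinin-like 1 was highest in cortex. Its lowest, median and highest signals were 7212, 8594 and 10615 in cortex and 4194, 6055 and 7258 in striatum. In hippocampus they were 3413, 5417 and 6573, in amygdala 3985, 4828 and 9492 and in accumbens 2424, 4297 and 4983. The cortical range was clear of accumbens and hippocampus and met striatum only at 7212 to 7258; in amygdala the array of iP animal 1 alone, at 9492, reached it. Cortex exceeded the other 4 regions by 0.76 ± 0.09 (SE, log2; adjusted p = 3.89e-09) and accumbens was lower by -0.57 ± 0.09 (adjusted p = 1.00e-06). Striatum (0.08 ± 0.09, adjusted p = 0.605), hippocampus (-0.10 ± 0.09, adjusted p = 0.461) and amygdala (-0.18 ± 0.09, adjusted p = 0.128) were not called. Without the 2 arrays amygdala was called at -0.27 (adjusted p = 0.00822, with 0.00587 to 0.271 over all settings tried), and without iP animal 1 alone at -0.26 (adjusted p = 0.0154). Cortex was highest in 10 of 11 animals, and iP animal 1 was the exception. Between cortex at the top and accumbens at the bottom, striatum and hippocampus differed by 0.15 (95% interval -0.07 to 0.36) and hippocampus and amygdala by 0.06 (-0.15 to 0.28), neither beyond the spread. Amygdala was above accumbens by 0.31 ± 0.11 (adjusted p = 0.0333), which was not called without the 2 arrays (0.23, adjusted p = 0.0827).

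Pcp4, the regulator of calmodulin, split the regions into 2 sets. Its lowest, median and highest signals were 7006, 9078 and 13213 in striatum and 7375, 8489 and 11158 in accumbens. In cortex they were 2959, 3657 and 4552, in amygdala 2662, 3730 and 4823 and in hippocampus 2220, 2920 and 3818. All 24 striatum and accumbens arrays were above all 35 others. Striatum was higher than the other 4 regions by 1.12 ± 0.08 (SE, log2; adjusted p = 3.45e-16) and accumbens by 1.01 ± 0.08 (adjusted p = 5.74e-15). Hippocampus was lower by -0.95 ± 0.08 (adjusted p = 2.40e-14), amygdala by -0.59 ± 0.08 (adjusted p = 3.14e-08) and cortex by -0.58 ± 0.08 (adjusted p = 1.37e-07). Striatum and accumbens did not differ beyond their spread (0.09, 95% interval -0.10 to 0.29, adjusted p = 0.642), and cortex and amygdala did not either (0.00, -0.20 to 0.20, adjusted p = 0.986). Striatum was above accumbens in 9 of 12 animals. Amygdala exceeded hippocampus by 0.29 ± 0.10 (adjusted p = 0.0243), and cortex exceeded hippocampus by 0.29 (adjusted p = 0.0283; 0.25 and 0.0614 without the 2 arrays).

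Read together, 4 of the 6 genes were called in cortex, with Pvalb and Vsnl1 higher and Pcp4 and Calb2 lower, where 7.86% of all tested probe sets were called higher and 9.19% lower. In striatum Pcp4, Hpca and Calb1 were higher and Calb2 lower (backgrounds of 6.27% higher and 7.65% lower). Hippocampus had Hpca higher and Pcp4 and Calb1 lower (10.8% and 12.5%). In amygdala Calb1 and Calb2 were higher and Hpca, Pvalb and Pcp4 lower (13.3% and 12.8%). All 6 genes were called in accumbens, with Pcp4 and Calb2 higher and the other 4 lower (12.3% and 8.58%). Differences past 1 on the log2 scale were reached by 1 gene in each region: Pvalb in cortex, Pcp4 in striatum and in accumbens, and Hpca in hippocampus and, below the others, in amygdala. Such differences were found for 1.01% of all tested probe sets in cortex and 0.839% in striatum. In hippocampus the share was 2.12%, for amygdala 1.51% and for accumbens 1.22%.

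**Figure D3:**
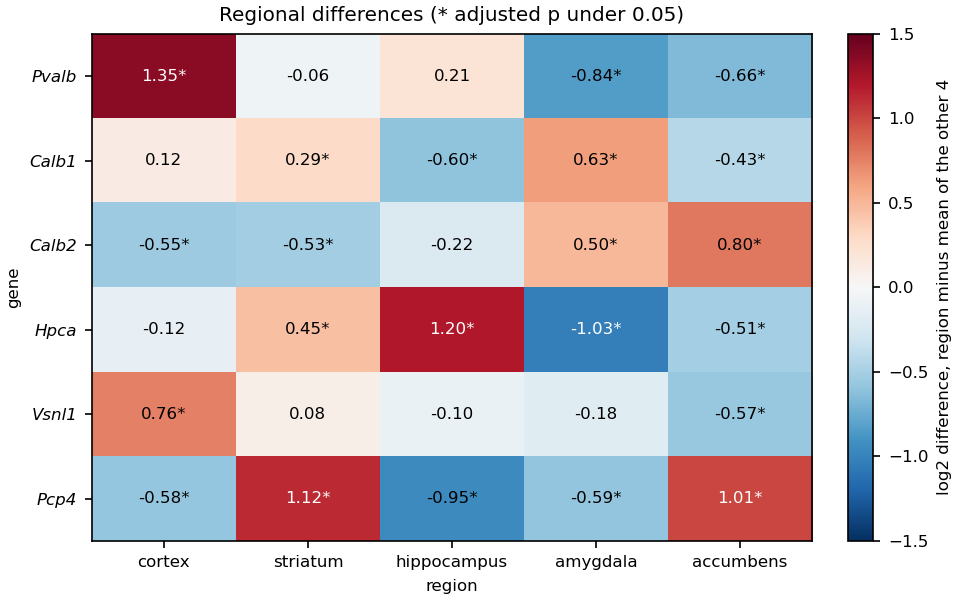
Log2 difference of each region (columns) from the mean of the other 4 for the 6 genes (rows), with red for higher, blue for lower and an asterisk for an adjusted p under 0.05 in limma over 59 arrays. The 6 genes have different profiles, from Pvalb at 1.35 in cortex to Hpca at -1.03 in amygdala.

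Over the 10 pairs of regions, 47 of the 60 comparisons of these genes were called: 10 for Hpca, 8 each for Pvalb, Calb1 and Pcp4, 7 for Vsnl1 and 6 for Calb2. Without the 2 arrays 47 were called as well, with 4 comparisons changing sides. The share of all probe sets called was 8.47% between cortex and striatum, 21.5% between cortex and hippocampus, 22.6% between cortex and amygdala and 22.8% between cortex and accumbens. It was 18.2% between striatum and hippocampus, 24.3% between striatum and amygdala, 14.1% between striatum and accumbens, 23.2% between hippocampus and amygdala, 23.6% between hippocampus and accumbens and 20.5% between amygdala and accumbens. From the highest to the lowest region, the fold difference was 3.44 for Hpca, 3.38 for Pvalb, 3.15 for Pcp4, 2.10 for Calb2, 2.08 for Vsnl1 and 1.98 for Calb1.

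Between the lines, none of the 6 genes was called, over all regions or in any region. Over all regions, each animal counted once, with its regional levels removed before averaging. Pvalb averaged 10.66 ± 0.16 in iP animals and 10.46 ± 0.14 in iNP animals (log2, SD, n = 6 each). The difference was 0.20 ± 0.08 (SE; 95% interval 0.02 to 0.37; limma adjusted p = 0.347). Without the 2 arrays it was 0.13, and its interval included 0 (-0.02 to 0.28). Calb1 averaged 11.55 ± 0.09 in iP animals and 11.38 ± 0.09 in iNP animals, a difference of 0.17 ± 0.05 (0.06 to 0.29; limma adjusted p = 0.157). Without the 2 arrays the Calb1 difference was 0.16 (0.05 to 0.27). For both genes the ranges of the lines overlapped, and 5 of 6 iP animals for Pvalb and 6 of 6 for Calb1 were above the iNP median. Calb2 averaged 10.06 ± 0.14 in iP animals and 10.19 ± 0.10 in iNP animals, a difference of -0.13 ± 0.07 (-0.28 to 0.02; adjusted p = 0.504 in limma), and -0.07 without the 2 arrays. For Calb2 1 of 6 iP animals was above the iNP median. Hpca differed by 0.02 (-0.07 to 0.11; adjusted p = 0.920), Vsnl1 by 0.08 (-0.05 to 0.22; adjusted p = 0.643) and Pcp4 by 0.05 (-0.10 to 0.19; adjusted p = 0.856). All 6 genes overlapped between the lines. Of all tested probe sets, 2.65% were called in this comparison, and 2 of the 6 genes, Pvalb and Calb1, had an unadjusted p under 0.05. Of the 5244 tested probe sets, 623 had an unadjusted p under 0.05 in limma. Without the 2 arrays, the unadjusted p in limma was 0.080 for Pvalb and 0.0069 for Calb1.

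Within single regions the values ran as follows for the buffers. In striatum Pvalb was 1511 at the lowest, 1565 at the median and 2073 at the highest in iP rats, against 1103, 1376 and 1528 in iNP rats. The lowest iP array lay just under the highest iNP array, so the lines overlapped at 1 end. The difference was 0.34 ± 0.11 on the log2 scale (SE, n = 6 each; 95% interval 0.11 to 0.58; limma adjusted p = 0.300). In cortex Pvalb was 3033, 2690, 3727, 3813 and 4631 in iP animals 1 to 5, against 2517, 3037 and 4092 at the lowest, median and highest in iNP. In hippocampus it was 1590, 1707 and 2509 in iP against 1381, 1556 and 2177 in iNP. The lines overlapped in both regions, at differences of 0.18 (-0.16 to 0.52) and 0.16 (-0.13 to 0.45). Above the iNP median were 4 of 5 iP arrays in cortex and 6 of 6 in hippocampus. In amygdala Pvalb was 733, 954 and 2705 in iP against 784, 852 and 1008 in iNP, and in accumbens 797, 1076 and 1422 in iP against 847, 1080 and 1182 in iNP. The amygdala difference of 0.31 (-0.23 to 0.85) was 0.04 without the 2 arrays, and the accumbens difference was 0.03 (-0.26 to 0.33). Pvalb was higher in iP in 5 of 5 regions, by 0.03 to 0.34; the regions come from the same animals, so these are not separate observations.

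Calb1 in amygdala was 3233, 4605 and 5505 at the lowest, median and highest in iP rats, against 3381, 3657 and 3933 in iNP rats. The iP arrays were the more spread, and the lowest amygdala array of all was that of iP animal 1. The difference was 0.27 ± 0.12 (SE, log2, n = 6 each; limma adjusted p = 0.549). Without iP animal 1 in amygdala and iP animal 5 in cortex it was 0.36 (adjusted p = 0.157; 0.155 to 0.827 over all settings tried). In cortex Calb1 was 2952, 3100, 3040, 3083 and 4948 in iP animals 1 to 5, against 2498, 2798 and 3065 in iNP. The cortical difference was 0.28 (95% interval -0.02 to 0.57; adjusted p = 0.850), and 0.13 without the 2 arrays. In striatum Calb1 was 2977, 3367 and 4582 in iP against 2624, 3228 and 3583 in iNP, in hippocampus 1712, 2198 and 2390 in iP against 1730, 1962 and 2180 in iNP, and in accumbens 1825, 2310 and 2846 in iP against 1562, 2192 and 2867 in iNP. Those 3 regions overlapped throughout, and Calb1 was higher in iP in 5 of 5 regions by 0.09 to 0.28.

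Calb2 was compared in the same way. In accumbens it was 1101, 1569 and 1848 in iP rats, against 1312, 2126 and 2643 in iNP rats. All 6 iP arrays were below the iNP median, while the lowest iNP arrays lay within the iP range. The difference was -0.40 ± 0.17 (SE, log2, n = 6 each; 95% interval -0.77 to -0.03; limma adjusted p = 0.672). In amygdala Calb2 was 528, 1620 and 1787 in iP against 1433, 1539 and 1825 in iNP. The difference there, -0.25 (-0.77 to 0.27), turned to 0.02 without the 2 arrays. In cortex the iP values of animals 1 to 5 were 691, 1033, 874, 816 and 735, against 669, 839 and 969 in iNP, in striatum 650, 801 and 1059 in iP against 755, 834 and 965 in iNP, and in hippocampus 806, 1037 and 1254 in iP against 791, 947 and 1167 in iNP. These 3 regions differed by -0.01, -0.08 and 0.10, with the lines overlapping throughout.

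For the sensors and Pcp4 the regional differences between the lines were small beside their intervals. Hpca differed by -0.07 to 0.10 over the 5 regions and was higher in iP in 4. Vsnl1 differed by -0.01 to 0.20, with the amygdala value at 0.20 and at 0.04 without the 2 arrays. Pcp4 differed by -0.01 to 0.21 and reached 0.21 in hippocampus, with signals of 2544, 3200 and 3818 in iP against 2220, 2624 and 3394 in iNP (95% interval -0.05 to 0.47; adjusted p = 0.815). In limma, 0 of 30 tests of a gene in a region were called, with adjusted p-values from 0.300 to 0.998 and 3 unadjusted p-values under 0.05. The share of all probe sets at an unadjusted p under 0.05 in single regions is not given here or for the lists below. The share of all tested probe sets called between the lines was 0.229% for cortex, 0.839% for striatum, 0.667% for hippocampus, 0.725% for amygdala and 0.572% for accumbens. A p that missed the threshold does not show that the lines are alike, and the intervals give the differences these data allow.

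**Figure D4:**
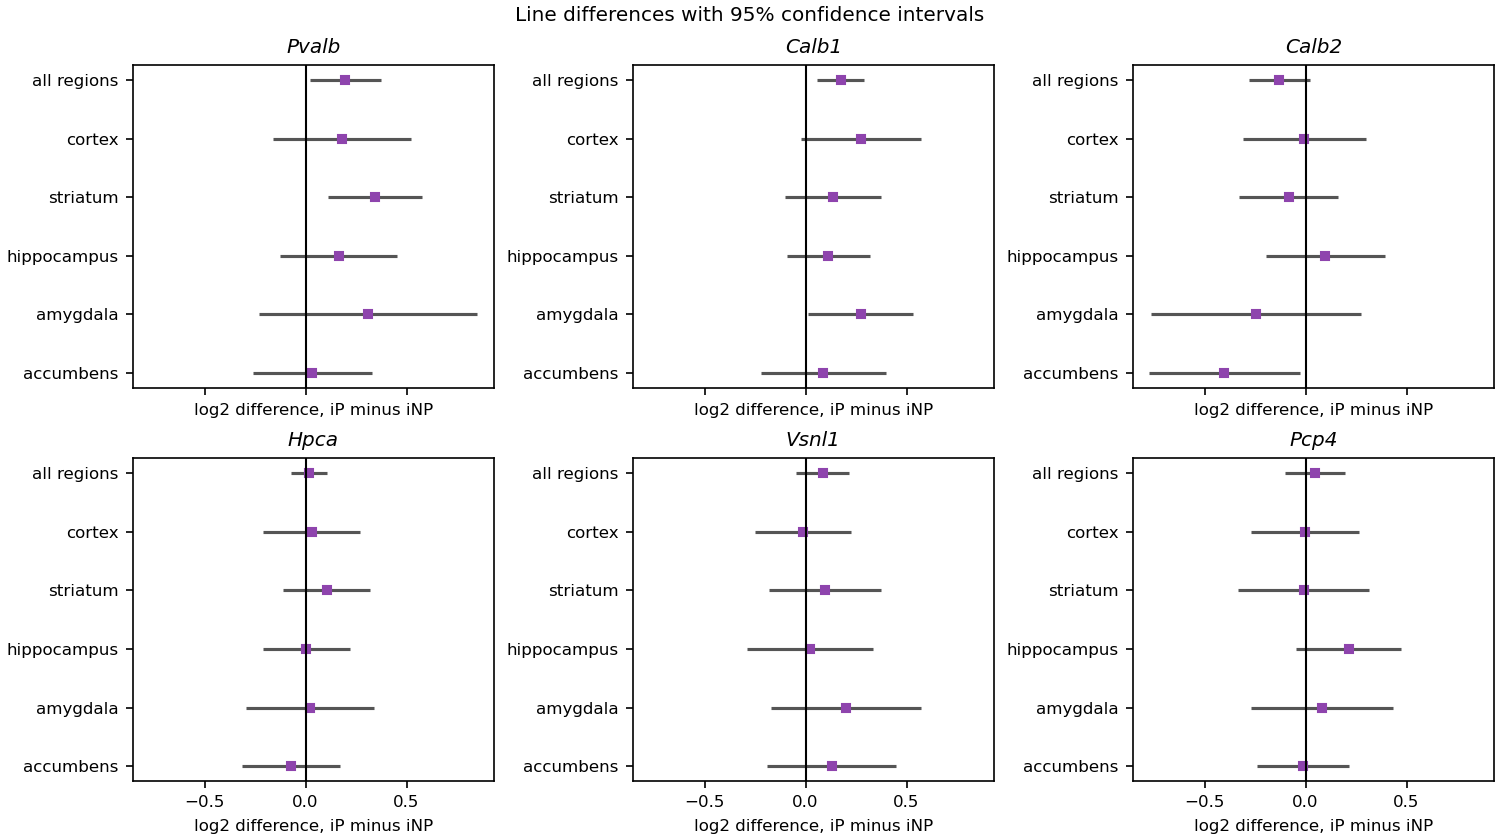
Difference between the lines (x axis, log2, iP minus iNP) for the 6 genes, over all regions and in each region, with 95% intervals from limma (n = 6 animals a line, 5 iP in cortex). Intervals clear of 0 are those of Pvalb and Calb1 over all regions, Pvalb in striatum, Calb1 in amygdala and Calb2 in accumbens, none of which passed the adjusted threshold. Without the 2 arrays that stood apart, that of Pvalb over all regions ran from -0.02 to 0.28.

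Whether the line difference varied between regions was tested as an interaction, with the animal as a block. None of the 6 genes was called: adjusted p in limma's F test was 0.956 for Calb2, 0.973 for Pvalb, Calb1 and Pcp4 and 0.988 for Hpca and Vsnl1. The share called over all probe sets was 0%, with 242 at an unadjusted p under 0.05 and a smallest adjusted p of 0.155. A line difference that passes an unadjusted threshold in striatum or accumbens is therefore not shown to differ from that in the other regions.

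The genes with the most similar regional pattern were found by the correlation of log2 signal over the 59 arrays, a description over arrays that share regions and animals. Pcp4 was nearest Rgs9 (r = 0.938), a regulator of G protein signalling in striatal neurons, Adora2a (0.921), an adenosine receptor, and Penk (0.916), the enkephalin precursor. Hpca was nearest the transcription factor gene Pou3f1 (0.864), the calcineurin catalytic subunit gene Ppp3ca (0.855) and the myelin gene Mal (0.781). Pvalb was nearest Dact2 (0.829), the glutaminase gene Gls2 (0.806) and the heavy neurofilament gene Nefh (0.804). Calb1 was nearest Asic2 (0.833), an acid-sensing channel, Sorbs2 (0.828) and Ctxn1 (0.818). Calb2 was nearest the receptor phosphatase gene Ptpro (0.876), Csdc2 (0.818) and Nnat (0.778), and Vsnl1 was nearest Vip (0.846), a neuropeptide of interneurons, Dact2 (0.818) and Bhlhe40 (0.798). Without the 2 arrays these 18 values ranged from 0.768 to 0.941.

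Once region by line means were removed, the highest correlations were lower. Pvalb was nearest Plcb4 (r = 0.739), the plasma membrane calcium pump gene Atp2b2 (0.693) and Nefh (0.671), which stood at 0.522, 0.586 and 0.497 without the 2 arrays. Calb2 was nearest Ptpro (0.728), Apex1 (0.662) and Nme2 (0.635), and these dropped to 0.465, 0.220 and 0.140. Calb1 was nearest Rfx5 (0.773), Ptprz1 (0.752) and Gng10 (0.729), which stood at 0.709, 0.662 and 0.660 without the 2 arrays. Hpca was nearest P2rx4 (0.549), Ppp3ca (0.485) and the IP3 receptor gene Itpr1 (0.482), and these dropped to 0.438, 0.328 and 0.297. Vsnl1 was nearest Ola1 (0.737), the synaptic fusion protein gene Snap25 (0.700) and App (0.677), which stood at 0.719, 0.632 and 0.670 without the 2 arrays. Pcp4 was nearest its paralog Pcp4l1 (0.621), Rgs9 (0.604) and the myelin gene Mog (0.602), at 0.733, 0.625 and 0.609 without the 2 arrays.

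Other EF-hand genes gave a setting for these 6. Of 41 listed, 24 had a probe set and 18 were tested. Against the other 4 regions, cortex had 4 higher and 1 lower, where 7.86% and 9.19% of all tested probe sets were so called. Striatum had 2 higher and 4 lower (6.27% and 7.65%). Hippocampus had 5 and 6 (10.8% and 12.5%), amygdala 4 and 2 (13.3% and 12.8%) and accumbens 1 and 4 (12.3% and 8.58%). Tnnc2, fast skeletal troponin C, was higher in cortex (1.75) and striatum (0.44) and lower in amygdala (-0.97), hippocampus (-0.77) and accumbens (-0.45; log2, all called). Pvalb was also higher in cortex and lower in amygdala and accumbens, but stood at 0.21 in hippocampus, uncalled. S100a10, the annexin partner p11, stood at 1.16 in cortex and -0.83 in hippocampus, and the calcium sensor gene Cabp1 at 1.00 in cortex and -0.87 in hippocampus. Hpcal1, a close relative of Hpca, had its peak where Hpca was lowest, with 1.42 ± 0.10 in amygdala (SE; adjusted p = 7.38e-16). Its signal in amygdala was 660, 1982 and 2444 at the lowest, median and highest in iP and 1914, 2125 and 2557 in iNP, and the lowest of these arrays was that of iP animal 1. In accumbens S100b, an astrocyte protein, was lower (-0.31) and the calpain gene Capn2 higher (0.19), and in striatum Hpcal1 (-0.33) and Sparcl1 (-0.29) were lower.

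**Figure D5:**
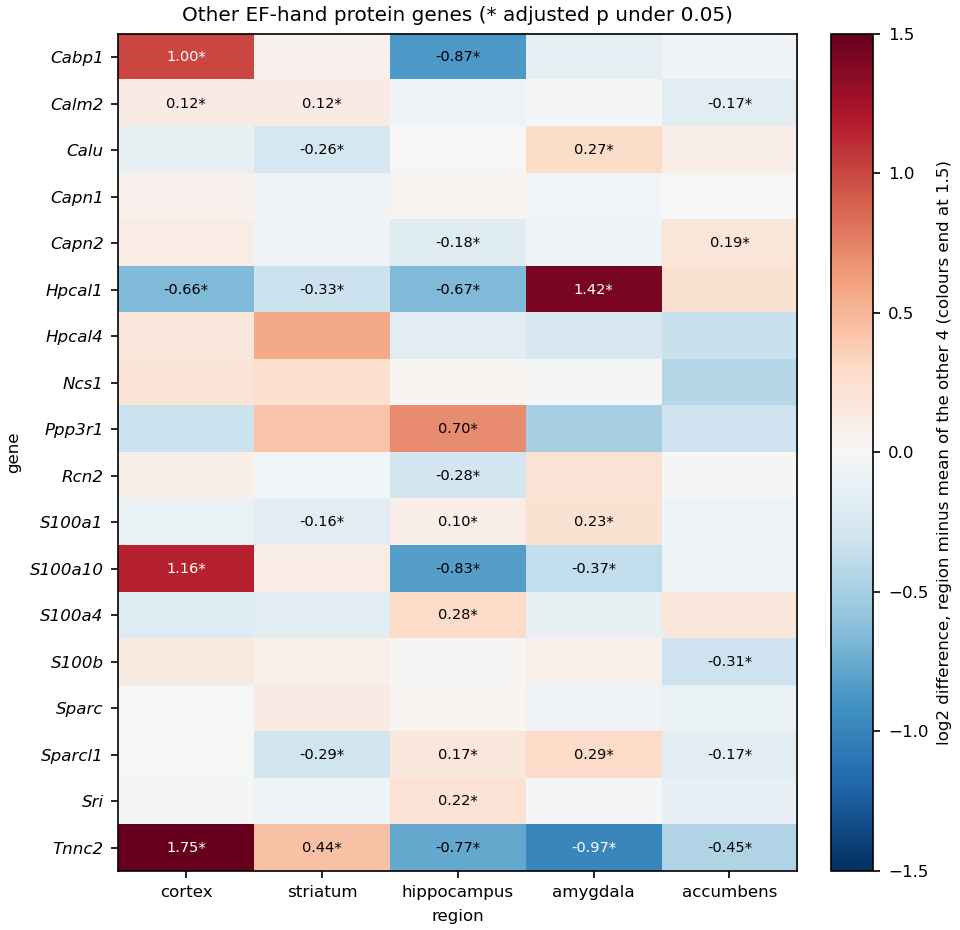
Log2 difference of each region (columns) from the mean of the other 4 for 18 other EF-hand genes (rows); numbers with an asterisk had an adjusted p under 0.05 in limma, and colours end at 1.5. Tnnc2 at 1.75 in cortex and Hpcal1 at 1.42 in amygdala are the strongest.

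Between the lines, 1 of the 18 was called over all regions: Tnnc2 was lower in iP by -0.40 ± 0.09 (log2, SE, n = 6 each; limma adjusted p = 0.0220). In that comparison 2.65% of all tested probe sets were called. In hippocampus its signal was 177, 238 and 293 in iP rats against 319, 396 and 722 in iNP rats, with no overlap. In cortex it was 961, 1123 and 1490 in iP against 1359, 1448 and 1814 in iNP, and in amygdala 255, 279 and 376 in iP against 271, 284 and 321 in iNP, with overlap in both. In single regions 0 of 90 tests of these genes were called in limma, with 9 at an unadjusted p under 0.05. The median difference of the 18 over all regions was -0.0044 where that of all tested probe sets was -0.0099.

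Genes of calmodulin and its targets, the pathway on which Pcp4 acts, were listed next. Of 26 listed, 22 had a probe set and 19 were tested. Pcp4l1, the paralog of Pcp4, was higher in accumbens by 2.09 and in striatum by 0.69 and lower in hippocampus by -1.52 and in cortex by -0.89 (log2, all called), in the same direction as Pcp4 in these regions. Pde1b, a calmodulin-dependent phosphodiesterase, was higher in striatum by 1.10 and lower in cortex by -0.66. The kinase gene Camk4 stood at 1.53 in striatum and -2.05 in hippocampus, and Camk2d at 1.25 in amygdala and -1.06 in hippocampus. Neurogranin (Nrgn), which like Pcp4 binds calmodulin through an IQ motif, was higher in cortex (0.66), striatum (0.33) and hippocampus (0.24) and lower in accumbens (-1.29). It was thus opposite to Pcp4 in cortex, hippocampus and accumbens and of the same sign in striatum. Camkk1 was lower in accumbens (-1.15), and in amygdala Atp2b1 was lower (-0.75) and Camk1 higher (0.50). By region, 4 of the 19 were higher and 4 lower in cortex (7.86% and 9.19% of all tested probe sets). In striatum 8 were higher and 3 lower (6.27% and 7.65%). Hippocampus had 4 and 8 (10.8% and 12.5%), amygdala 4 and 6 (13.3% and 12.8%) and accumbens 5 and 8 (12.3% and 8.58%). Between the lines 0 of 19 were called in limma over all regions, with 5 at an unadjusted p under 0.05, and 0 of 95 tests in single regions, with 3. Of the 5244 tested probe sets, 623 had an unadjusted p under 0.05 in limma over all regions. The median difference over all regions was -0.094 where that of all probe sets was -0.0099.

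Markers of cell classes were set beside the members, and their part in the regional differences was not tested. Of all tested probe sets, 7.86% were called higher and 9.19% lower in cortex, and 6.27% and 7.65% in striatum. The shares were 10.8% and 12.5% in hippocampus, 13.3% and 12.8% in amygdala and 12.3% and 8.58% in accumbens. Genes listed as GABA interneuron markers did not all follow Pvalb. The list includes Gad1, Gad2 and Slc32a1, which other GABA neurons such as medium spiny neurons share. Of 12 tested, 6 were higher and 3 lower in cortex, with Vip at 1.11, Kcnc1, a potassium channel of fast-spiking cells, at 0.67 and Sst at 0.27 on the log2 scale, and with the GABA-synthesising enzyme gene Gad1 at -0.34. By absolute size, the largest called differences of this list in cortex were those of Vip, Cck, Kcnc2 and Kcnc1, in that order. Values and directions of Cck and Kcnc2 in cortex are not given here. The summed signal of the 12 genes in cortex was 43262 to 56781 in iP and 43440 to 48151 in iNP, and in hippocampus, where 8 were lower and 0 higher, 27818 to 33901 in iP and 28248 to 35922 in iNP. In striatum 3 of them were higher and 0 lower, in amygdala 2 and 6, and in accumbens, where Pvalb was lower, 6 and 4. The largest called differences of the list in accumbens were those of Gad2, Slc32a1 and Gad1. Medium spiny neuron markers were, like Pcp4, higher in striatum and accumbens, with median differences of 1.84 in striatum, 1.92 in accumbens, -1.34 in cortex, -1.82 in hippocampus and -0.22 in amygdala over 9 genes. Their summed signal in striatum was 29965 to 54276 in iP and 31776 to 53299 in iNP, and in hippocampus 8530 to 10638 in iP and 8818 to 10569 in iNP. Pyramidal and granule neuron markers, 10 tested, had 5 higher and 2 lower in hippocampus, where Hpca was highest, but 2 higher and 1 lower in amygdala, where Hpca was lowest. They had 4 and 1 in cortex, 2 and 1 in striatum and 2 and 5 in accumbens. Oligodendrocyte markers, 5 tested, were all lower in amygdala and all higher in hippocampus, the regions of the lowest and highest Hpca. In accumbens 3 were higher and 0 lower, where Hpca was lower by -0.51, in striatum 4 were higher and 0 lower, and in cortex 0 were called. Their summed signal was 31301 to 87272 in iP and 37110 to 60852 in iNP in amygdala, and 78315 to 125621 in iP and 81381 to 110400 in iNP in hippocampus.

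Between the lines, the markers of these 4 classes gave 1 call over all regions, Npy, lower in iP by -0.24 ± 0.05 (log2, SE, n = 6 each; limma adjusted p = 0.0149). In that comparison 2.65% of all tested probe sets were called. Of 5 astrocyte, 2 choroid plexus and 3 thalamus and hypothalamus markers 0 were called over all regions in limma, with 0 at an unadjusted p under 0.05. By region, the astrocyte marker Slc1a2 was higher in hippocampus and lower in amygdala, Gja1 was lower in cortex and S100b lower in accumbens. The choroid plexus markers went opposite ways in hippocampus, with Ttr at 4.40 and Igf2 at -0.82, and in amygdala, with Ttr at -0.94 and Igf2 at 1.13. In striatum both were lower (-1.06 and -1.34), in cortex Ttr was lower (-1.71) and in accumbens Igf2 was higher (1.01). Of the others, the thalamus and hypothalamus marker Hcrt was higher in hippocampus and lower in striatum and accumbens, and Trh was lower in cortex. Of 3 microglia markers P2ry12 was lower in iP over all regions by -0.76 ± 0.11 (log2, SE, n = 6 each; limma adjusted p = 9.14e-04), while Cx3cr1 (-0.09) and Aif1 (0.08) were not called. In single regions 2 of 15 microglia tests were called in limma, P2ry12 in hippocampus (-0.93, adjusted p = 0.0252) and amygdala (-0.61, adjusted p = 0.0274). Of all tested probe sets, 0.667% were called between the lines in hippocampus and 0.725% in amygdala. By region, 1 microglia marker, Aif1, was lower in hippocampus and higher in amygdala. The summed signal of the GABA interneuron list in striatum, where Pvalb had its smallest unadjusted p, was 38285 to 48595 in iP and 41560 to 45289 in iNP, and the lines overlapped. That sum includes Gad1, Gad2 and Slc32a1, which are not confined to interneurons, so it does not measure interneurons alone.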

How the data were processed

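Total RNA (10 µg per array) was labelled and hybridised to Affymetrix rat arrays, each rat separately, per the labels' protocols. The deposited values are intensities on a linear scale, 1 per probe set and array, and as deposited their 2% trimmed mean is 1000 on every array (by which program: not given in the sources used here). Lines were taken from titles and genotype, since 1 other label gives the same strain for all 59 arrays.

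Intensities under 16 were set to 16 and log2 was taken. Controls were left out and the 40% of probe sets with the lowest mean dropped. The array annotation gives a single symbol for 7006 of 8740 non-control probe sets, several for 308 and none for 1426. Tests used limma 3.58.1 in R 4.3.3 (lmFit, eBayes with a mean trend), checked on simulated data, with Benjamini-Hochberg adjustment over 5244 probe sets and a threshold of 0.05. The simulated arrays had changes of 1 on the log2 scale and no animal effect. They do not check the animal block or smaller differences. The line difference over all regions used 1 mean per animal after each region's mean was removed, and single regions were also fitted alone. Regions, and the interaction of line with region, were fitted with the animal as a block, since regions come from the same 12 animals. The mean residual correlation was 0.057 between arrays of an animal and -0.0037 between arrays of different animals, and above 0 in 7 of 12. The number of arrays limits the precision.

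Members and lists were chosen with earlier results of these data known. Of other genes, the text names up to 3 with the largest called differences per list and region, those called between the lines, and the 3 highest correlations per member; single cell class markers were chosen after their values were seen. Motifs were searched in RefSeq windows (GRCr8). Alternatives were other floors, filters and normalizations, no mean trend, array weights, gene means, other blocks, and arrays or animals left out.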

Additional observations from a re-analysis of the deposited data

Results flagged for a closer look

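Of 60 groups of a gene, region and line, 7 had an array far from the rest of its group by Dixon's ratio, which chance would give in about 1 group in 20. No explanation was tested for any of them. Values are log2 signals.

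Of these, 3 belong to the arrays that stood apart. Pvalb in amygdala was 11.40 in iP animal 1, against 9.52 to 10.08 in the other iP animals. Calb2 on the same array was 9.04, against 10.49 to 10.80. Calb1 in cortex was 12.27 in iP animal 5, against 11.53 to 11.60.

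The other 4 lay on arrays nearest their own region. Pvalb in hippocampus was 11.29 in iP animal 2, against 10.64 to 10.88 in the other iP animals. Vsnl1 in striatum was 12.03 in iP animal 2, below 12.56 to 12.83. Hpca in amygdala was 11.88 in iNP animal 12, below 12.07 to 12.14 in the other iNP animals, and Vsnl1 in accumbens was 11.24 in iNP animal 12, below 11.95 to 12.27.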

How the results depend on the processing

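Over all alternatives, the 864 recomputed line differences of the 6 genes stayed uncalled, and 69 of them, never called, changed sign. Of 750 recomputed regional differences 738 kept direction and side, and 12 became calls: Pvalb and Calb2 in hippocampus and Vsnl1 in amygdala, each with array weights, without the 2 arrays, without the 5 arrays nearest another region and without iP animal 1. Those settings made the members called in hippocampus 5, where the reported count is 3 (3 to 5 with an animal left out). The cause of these and the following shifts was not tested beyond what was left out.

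Counts over all probe sets moved more. Line calls in cortex (12) were 37 with array weights, 24 without the 2 arrays, 24 without the 5 and 56 with the animal as a random block, and 9 to 24 with an animal left out, 24 being without iP animal 5. In amygdala (38) the random block gave 59, and leaving out an animal 24 to 52, with 24 without iNP animals 9, 10 or 11 and 25 without iP animal 4. In accumbens (30) dropping 60% of probe sets gave 19 and the random block 51, and leaving out an animal 18 to 39, with 18 without iNP animal 9 and 19 without iNP animal 11. Cortex against the other 4 regions gave 1383 calls with array weights, where the reported fit had 894. Calls past 1 on the log2 scale (53 for cortex, 44 for striatum, 111 for hippocampus, 79 for amygdala, 64 for accumbens) were 101, 88, 179, 136 and 134 with no filter and 26, 24, 54, 36 and 30 with 60% dropped, in that order, and in amygdala 121 with array weights, 164 without the 5 arrays and 47 with gene means. With no replicate block, 47 of 60 pairs were called, members called in the 5 regions stayed at 4, 4, 3, 5 and 6, and the interaction gave 0 calls in limma; it changed no call of a member against the other 4 regions. With the animal as a random block, the line difference over all regions gave 185 calls, where the reported fit gave 139.

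Precision is limited by 5 or 6 arrays per line and region, and each line is 1 strain.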

Other observations

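A second probe set designed on the same sequence record as the Calb1 probe set carries no gene in the array annotation and was looked at after its values were seen. Its signal correlated with that of Calb1 at r = 0.207 over the 59 arrays and at r = 0.158 after region by line means were removed. It was higher in cortex than in the other 4 regions (log2 difference 0.23, adjusted p = 0.0116 in limma) and lower in accumbens (-0.21, adjusted p = 0.0170), where Calb1 itself was not called in cortex and was lower in accumbens by -0.43. In the regions where Calb1 was called otherwise it was not: it stood at -0.054 in amygdala (adjusted p = 0.597), where Calb1 stood at 0.63, at 0.014 in hippocampus (0.919), where Calb1 stood at -0.60, and at 0.014 in striatum (0.918), where Calb1 stood at 0.29. Between the lines it differed by 0.10 ± 0.07 (log2, SE, iP minus iNP; adjusted p = 0.596 in limma).

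Striatum and accumbens differed in the same direction in all 12 animals for 4 of the 6 genes. Pvalb, Calb1 and Hpca were higher in striatum and Calb2 in accumbens in each animal, while Pcp4 was higher in striatum in 9 of 12 and Vsnl1 in 11 of 12. The share of all probe sets with 1 direction in all 12 animals is not given here. In limma, Pvalb, Calb1, Calb2, Hpca and Vsnl1 were called for this pair and Pcp4 was not, where 14.1% of all tested probe sets were called.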
